A study of Mus musculus with 8 samples.

Results

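The 10 genes described here encode the proteins that carry fatty acid from blood lipoproteins into muscle: Lpl, Gpihbp1, Cd36, Slc27a1, Slc27a3, Slc27a4, Fabp3, Fabp4, Fabp5 and Pparg. They were taken by symbol from a table of 36048 mouse genes, and each symbol matched 1 row. RNA was sequenced from 3 libraries of muscle endothelial cells (EC), 3 libraries of single muscle fibres (SMF) and 2 libraries of satellite cells (SC, the stem cells of muscle), and the members were compared to see which step of lipid delivery lies in the vessel wall and which in the fibre. The EC and SC libraries each came from about 100000 cells that had been sorted from hindlimb muscle by flow cytometry. Each SMF library came from 100 fibres of the extensor digitorum longus, a fast muscle of the lower leg, that were chosen by hand after a rest of 3 h. In comparisons with SMF, cell type therefore cannot be told apart from the muscle of origin and the way of isolation. Strain, genotype, age, sex and the surface markers of the sort are not given in the labels, and no treatment is named. Nothing in the labels ties the replicates to different animals or cultures. The p-values below therefore describe how much these libraries vary, and that variation may be purely technical.

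Triglyceride circulates in lipoproteins too large to leave the capillary. Lipoprotein lipase, the product of Lpl, cuts it into fatty acids on the luminal face of the endothelium, where the enzyme is held by the anchor protein GPIHBP1. The freed fatty acids pass the membrane with the help of the scavenger receptor CD36 and of the fatty acid transport proteins of the Slc27a family, are bound in the cytoplasm by the fatty acid binding proteins (FABP), and serve as ligands of the nuclear receptor PPAR gamma, the product of Pparg, which in adipocytes switches on Fabp4, Cd36 and Lpl.

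The label of each group was checked against 10 marker genes. The summed level of the endothelial markers (Cdh5, Pecam1 and others) was 1416 to 1457 FPKM (fragments per kilobase of transcript, scaled to the library's fragments) in EC, 4.35 to 5.09 FPKM in SMF and 19.8 to 27.2 FPKM in SC. The fibre markers summed to 12.3 to 20.7 FPKM in EC, 33978 to 37172 FPKM in SMF and 184 to 293 FPKM in SC, and the satellite cell markers to 16.5 to 24.6 FPKM in EC, 25.5 to 33.0 FPKM in SMF and 963 to 992 FPKM in SC. Erythroid markers summed to 270.2 to 582 FPKM in EC, 11.6 to 52.7 FPKM in SMF and 64.6 to 113 FPKM in SC. Pericyte and smooth muscle markers had sums that overlapped between EC and the other groups, 305 to 756 FPKM in EC, 342 to 384 FPKM in SMF and 404 to 494 FPKM in SC. Of these sums, Des alone made 337, 313 and 354 FPKM in SMF and 140.2 and 168 FPKM in SC. In the limma fit given below, 8 of the 10 markers were higher in EC than in SMF and 1 was lower. Of all tested genes, 55.5% were higher and 10.8% lower. Against SC, EC was higher for 5 markers and lower for 3, with 16.4% and 21.2% of all tested genes. Of the EC libraries, EC2 was lowest in the erythroid, the pericyte and smooth muscle, and the leukocyte sums. The aligned total of each library was inferred from the ratio of deposited coverage to FPKM. It was 298 to 368 megabases in EC, 525 to 581 in SMF and 278 to 313 in SC. A fragment of 100 bases on a transcript of 1 kb was worth 0.272 to 0.336 FPKM in EC, 0.172 to 0.190 FPKM in SMF and 0.320 to 0.360 FPKM in SC, so levels below these values rest on less than 1 whole fragment per kilobase. An unnamed sample (1 of the series) fell short of the RNA integrity reached by the rest, per the labels.

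Promoter sequence is shown for 3 members, because Cd36 and Pparg shared the EC pattern described next while Fabp3 had the SMF pattern. Each window holds the 250 bases before a RefSeq start on GRCm38.p6, 5′ to 3′ on the strand of the gene. Capitals mark the hexamer AGGTCA (or its reverse complement TGACCT), 2 copies of which 1 base apart form the element DR1 bound by PPAR and RXR, and the E-box CANNTG, where bHLH factors such as MYOD bind.
Cd36, chr5:17835897-17836146, minus strand: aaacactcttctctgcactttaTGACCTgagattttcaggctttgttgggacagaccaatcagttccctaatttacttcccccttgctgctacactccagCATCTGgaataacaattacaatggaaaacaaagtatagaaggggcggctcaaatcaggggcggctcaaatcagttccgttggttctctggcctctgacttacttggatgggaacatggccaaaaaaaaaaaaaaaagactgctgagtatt
Fabp3, chr4:130308488-130308737, plus strand: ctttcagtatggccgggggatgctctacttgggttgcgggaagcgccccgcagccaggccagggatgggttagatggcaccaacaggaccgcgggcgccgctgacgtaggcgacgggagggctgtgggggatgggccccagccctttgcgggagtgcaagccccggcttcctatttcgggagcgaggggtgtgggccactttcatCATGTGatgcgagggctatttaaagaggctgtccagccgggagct
Pparg, middle start, chr6:115362099-115362348, plus strand: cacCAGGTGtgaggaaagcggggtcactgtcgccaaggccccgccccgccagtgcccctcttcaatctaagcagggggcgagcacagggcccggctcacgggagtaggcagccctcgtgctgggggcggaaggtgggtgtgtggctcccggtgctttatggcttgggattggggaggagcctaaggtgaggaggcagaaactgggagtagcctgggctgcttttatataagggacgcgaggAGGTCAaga
Pparg, downstream start, chr6:115421816-115422065, plus strand: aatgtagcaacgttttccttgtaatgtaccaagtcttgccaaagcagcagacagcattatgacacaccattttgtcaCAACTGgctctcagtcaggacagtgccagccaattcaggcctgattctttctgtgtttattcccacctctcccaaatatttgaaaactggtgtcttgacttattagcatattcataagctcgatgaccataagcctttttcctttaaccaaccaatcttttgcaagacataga
The Cd36 window held 1 AGGTCA hexamer, 228 bases before the start, and 1 E-box. The Fabp3 window held no AGGTCA hexamer and 1 E-box, 45 bases before the start. The middle one of the 3 Pparg windows held 1 AGGTCA hexamer 9 bases before the start, the most upstream one (not printed) held 1 at 28 bases before its start, and the downstream window held none. No window of the 6 members with an entry (Cd36, Fabp3, Pparg, Slc27a1, Slc27a3 and Slc27a4, 10 windows in all) held the complete DR1 (AGGTCA, any base, AGGTCA) or the ETS core CCGGAAG, on either strand. Among the 32851 mouse promoter windows of this length, 0.0335% held DR1, 14.0% the AGGTCA hexamer, 6.91% the ETS core and 66.2% an E-box, so an E-box match is the common case. A match describes these letters only, and a window without one says nothing about binding elsewhere.

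Most of the members had their highest level in the EC libraries. Cd36, Fabp4, Gpihbp1, Lpl, Fabp5, Pparg and Slc27a3 were highest in EC, Fabp3 was highest in SMF, and Slc27a1 and Slc27a4 were highest in SC. The 10 members summed to 1232, 1089 and 1235 FPKM in the EC libraries, to 59.3, 70.1 and 81.9 FPKM in the SMF libraries and to 37.4 and 30.5 FPKM in the SC libraries. Cd36 and Fabp4 alone made 83.4 to 84.9% of that sum in EC. All 10 passed the filter on low values (at least 1 FPKM in at least 2 libraries), as did 16700 genes in the whole table. Gpihbp1, Pparg and Slc27a3 passed only with their EC libraries, Fabp3 only with SMF and Slc27a4 only with SC. Each is highest in that group, so the direction of their calls follows in part from the filter. In limma at a Benjamini-Hochberg adjusted p under 0.05, 8 members were higher and 2 lower in EC than in SMF, against 55.5% of all tested genes higher and 10.8% lower (66.3% called in all). Against SC, EC was higher for 7 members and lower for 2, with 16.4% of all tested genes higher and 21.2% lower (37.7% in all). SMF was higher than SC for 1 member and lower for 6, with 8.57% of all tested genes higher and 56.5% lower (65.1% in all). In this last comparison the members' share of lower calls was near that of all genes. The median of all tested genes lay at 0.85 on the log2 scale for EC minus SMF, -0.11 for EC minus SC and -0.93 for SMF minus SC, and after median-of-ratios scaling at 0.09, 0.01 and -0.12. The share of calls that were higher moved with the scaling as well, and for EC minus SMF it was 83.7% as deposited and 53% after median-of-ratios scaling. For EC minus SC it was 43.7% as deposited and 54% after that scaling, and for SMF minus SC 13.2% and 48.9%. Against SMF, upper-quartile scaling brought the largest reduction of the EC differences of Cd36, to 5.59 on the log2 scale, and of Lpl, to 2.01, and both stayed called.

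**Figure D1:**
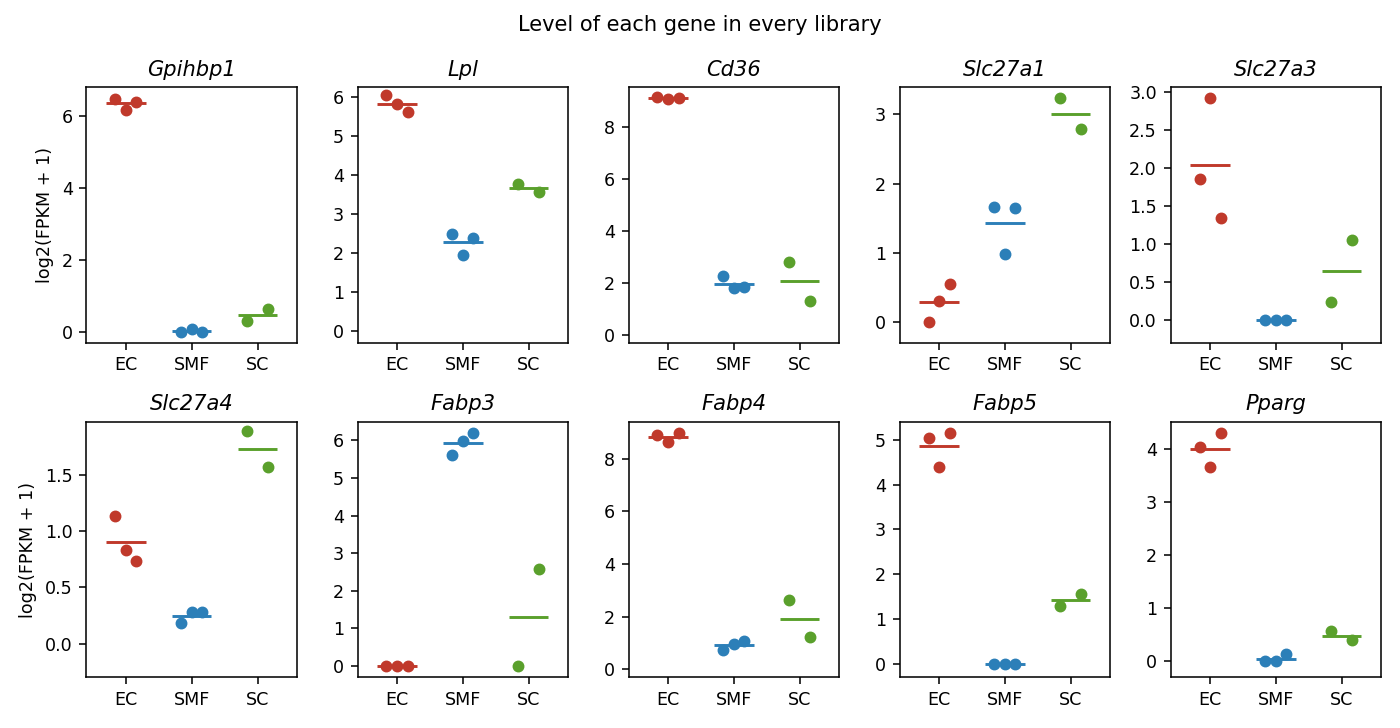
Level of each member in every library, as log2(FPKM + 1), with EC (3 libraries), SMF (3) and SC (2) from left to right; points are libraries, lines are group means and each panel has its own axis. Cd36, Fabp4, Gpihbp1, Lpl, Fabp5, Pparg and Slc27a3 are highest in EC, Fabp3 in SMF, and Slc27a1 and Slc27a4 in SC.

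Lipoprotein lipase and its anchor differed in how far they were restricted to the endothelium. Gpihbp1 (chromosome 15, 75596630 to 75598213, mm10) stood at 87.2, 70.5 and 82.6 FPKM in EC, at 0, 0.0660 and 0 FPKM in SMF and at 0.236 and 0.553 FPKM in SC. It was thus close to 0 outside EC, with no overlap between the groups. The EC mean of 80.1 ± 8.61 FPKM (SD, n = 3) was 203-fold that of SC, and the log2 difference was 6.31 (SE 0.15, adjusted p = 9.95e-08, limma) against SMF and 5.87 (SE 0.16, adjusted p = 6.76e-07) against SC. Lpl (chromosome 8, 68880555 to 68906932) stood at 65.5, 56.1 and 48.4 FPKM in EC, at 4.58, 2.90 and 4.20 FPKM in SMF and at 12.8 and 10.9 FPKM in SC. All 8 libraries held Lpl, in the order EC, SC, SMF with no overlap. The EC mean of 56.6 ± 8.53 FPKM (SD, n = 3) was 14.6-fold the SMF mean of 3.89 ± 0.883 FPKM (n = 3) and 4.79-fold the SC mean of 11.8 ± 1.32 FPKM (n = 2). The log2 differences of Lpl were 3.57 (SE 0.19, adjusted p = 1.94e-06) against SMF and 2.16 (SE 0.21, adjusted p = 0.00016) against SC. The level of Gpihbp1 was 1.33, 1.26 and 1.71 times that of Lpl in the EC libraries, 0, 0.0228 and 0 times in SMF and 0.0185 and 0.0507 times in SC. In these bulk libraries, fewer cells of a type and less RNA per cell cannot be told apart.

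Cd36, the receptor that takes up long-chain fatty acids, had the highest gene FPKM of the members in EC. In the deposited TPM table (transcript abundance scaled to a fixed total), Cd36 was at 424, 474 and 477 TPM in EC and Fabp4 was higher, at 997, 1074 and 1236 TPM. The FPKM of Cd36 (chromosome 5, 17781690 to 17888959) was 555, 527 and 544 FPKM in EC, 3.80, 2.52 and 2.57 FPKM in SMF and 6.04 and 1.47 FPKM in SC. Every EC library lay far above every other library, while the SMF range lay inside the SC range. The EC mean of 542 ± 14.1 FPKM (SD, n = 3) was 183-fold the SMF mean of 2.96 ± 0.723 FPKM (n = 3) and 144-fold the SC mean of 3.76 ± 3.23 FPKM (n = 2). The log2 differences were 7.11 (SE 0.35, adjusted p = 1.41e-06, limma) against SMF and 7.02 (SE 0.39, adjusted p = 9.01e-06) against SC. Macrophages also carry CD36, and the leukocyte markers summed to 64.4, 15.1 and 88.0 FPKM in the EC libraries, 1.82 to 5.26 FPKM in SMF and 30.4 to 42.4 FPKM in SC. Their part in the Cd36 level was not tested. Muscle fibres are known to carry CD36 protein, and at the RNA level SMF and SC differed by -0.09 on the log2 scale (95% interval -1.01 to 0.83, adjusted p = 0.857).

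The 3 Slc27a members, which couple import of fatty acid to its activation with coenzyme A, were low in every group, and each had its own order. Slc27a1, the transporter that in muscle and fat cells responds to insulin (chromosome 8, 71568728 to 71587307), stood at 0, 0.232 and 0.469 FPKM in EC, at 2.15, 0.970 and 2.14 FPKM in SMF and at 8.38 and 5.90 FPKM in SC. The groups did not overlap. The log2 difference was -1.14 (SE 0.25, adjusted p = 0.00419, limma) for EC minus SMF and -2.72 (SE 0.28, adjusted p = 0.000205) for EC minus SC, and the mean of SC was 4.07-fold that of SMF. Slc27a4, the transporter best known from intestine and skin (chromosome 2, 29802634 to 29817522), was at 1.19, 0.783 and 0.660 FPKM in EC, 0.132, 0.216 and 0.215 FPKM in SMF and 2.69 and 1.97 FPKM in SC. EC lay between the other groups, and the log2 difference was 0.65 (SE 0.17, adjusted p = 0.0102) for EC minus SMF and -0.83 (SE 0.19, adjusted p = 0.0111) for EC minus SC. Relative to the median of all genes the EC to SMF difference of Slc27a4 was -0.20, and after median-of-ratios scaling it was 0.26 with an adjusted p of 0.236. Slc27a3 (chromosome 3, 90385230 to 90390835), which has acyl-CoA synthetase activity, was at 2.62, 6.54 and 1.53 FPKM in EC, listed at 0 in all 3 SMF libraries, and at 0.179 and 1.08 FPKM in SC. EC2 held the highest value, and by gene FPKM it was also the EC library with the lowest Cd36, Fabp4, Fabp5, Gpihbp1 and Pparg. By TPM, EC2 was lowest for Fabp5 (28.8) and Pparg (13.2). EC1 was lowest by TPM for Cd36 (424), Fabp4 (997) and Gpihbp1 (145). The listed Fabp5 transcript was highest in EC2, at 21.9 FPKM against 16.4 in EC1 and 12.9 in EC3. Slc27a3 passed the test against SMF (adjusted p = 0.00245). Against SC its log2 difference of 1.39 (SE 0.45, adjusted p = 0.0422) was called in 7 of 21 alternatives, and without EC2 it was 0.95 (adjusted p = 0.0505).

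The cytoplasmic carriers divided between the cell types, with Fabp4 and Fabp5 in EC and Fabp3 in SMF. Fabp4, the adipocyte and capillary form (chromosome 3, 10204342 to 10208616), was at 473, 396 and 504 FPKM in EC, 0.670, 0.939 and 1.09 FPKM in SMF and 5.21 and 1.34 FPKM in SC. The EC mean of 458 ± 55.6 FPKM (SD, n = 3) was 509.6-fold the SMF mean of 0.898 ± 0.211 FPKM (n = 3) and 139.8-fold the SC mean of 3.28 ± 2.74 FPKM (n = 2). The log2 differences of Fabp4 were 7.92 (SE 0.33, adjusted p = 6.36e-07, limma) against SMF and 6.90 (SE 0.37, adjusted p = 7.59e-06) against SC. Fabp4 is also an adipocyte gene. Of the markers that define adipocytes, Adipoq was at 0, 0 and 0.255 FPKM and Plin1 at 0, 0 and 0.261 FPKM in the same EC libraries. Of the 7 adipocyte markers in the table, which summed to 16.3 to 23.5 FPKM in EC, 0.207 to 0.344 FPKM in SMF and 1.93 to 4.92 FPKM in SC, Lipe alone made 22.7, 16.3 and 18.7 FPKM in EC. The part of adipocyte RNA in the Fabp4 level was not tested. Fabp5, the epidermal form (chromosome 3, 10012585 to 10016610), was at 32.2, 20.2 and 34.4 FPKM in EC, listed at 0 in all 3 SMF libraries, and at 1.43 and 1.93 FPKM in SC. Its EC mean of 28.9 ± 7.66 FPKM (SD, n = 3) was 17.2-fold the SC mean, and the adjusted p was 7.01e-07 against SMF and 2.39e-05 against SC.

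Fabp3, the heart and skeletal muscle form (chromosome 4, 130308738 to 130315463), had the reverse pattern. It was listed at 0 in all 3 EC libraries, stood at 48.0, 62.5 and 71.6 FPKM in SMF, and was at 0 and 5.01 FPKM in SC. SMF lay above every other library, and the SC libraries differed between themselves. A fragment on the Fabp3 transcript was worth 0.330 to 0.408 FPKM in EC, which is the depth at which the zeros were recorded. The SMF mean was 60.7 ± 11.9 FPKM (SD, n = 3), EC was lower than SMF with an adjusted p of 4.66e-05 (limma), and SMF exceeded SC by 4.63 on the log2 scale (SE 0.63, adjusted p = 0.000398). EC and SC did not pass the test (adjusted p = 0.151), which without SC replicate 1 became 0.000591. The fibre markers moved with this difference inside SC, at 184 FPKM in SC1 and 293 FPKM in SC3, and their part in it was not tested. Fabp3 shares sequence with a processed copy, Fabp3-ps1 on chromosome 10, 99.3% identical over 402 bases, and 29.2% of the 50-base words of the Fabp3 transcript occur in it. Fabp3-ps1 was listed at 0.475, 0 and 1.74 FPKM in EC, 28.9, 20.7 and 26.4 FPKM in SMF and 0.935 and 2.96 FPKM in SC, and fragments from the shared words cannot be told apart by sequence. With both rows summed, an alternative added after the data were seen, EC minus SMF was -5.76 (adjusted p = 5.79e-05). Fabp5 likewise shares 21.0% of its words with 5 other genes, and 184 of the 198 shared words occur in Gm6166. Summed with the row of Fabp5l2 only, Fabp5 gave 5.05 for EC minus SMF (adjusted p = 4.92e-07, limma). No other row was added to it.

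Pparg, the receptor that controls several of these genes in fat cells, followed the endothelial members at a lower level. Its values (chromosome 6, 115360879 to 115490404) were 15.4, 11.6 and 18.6 FPKM in EC, 0, 0 and 0.0956 FPKM in SMF and 0.495 and 0.313 FPKM in SC. All EC libraries were above all others, and SMF and SC, both near 0, did not pass the test (adjusted p = 0.088). The EC mean of 15.2 ± 3.48 FPKM (SD, n = 3) was 37.6-fold that of SC, and the log2 differences were 3.95 (SE 0.18, adjusted p = 9.52e-07, limma) against SMF and 3.51 (SE 0.20, adjusted p = 9.97e-06) against SC.

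**Figure D2:**
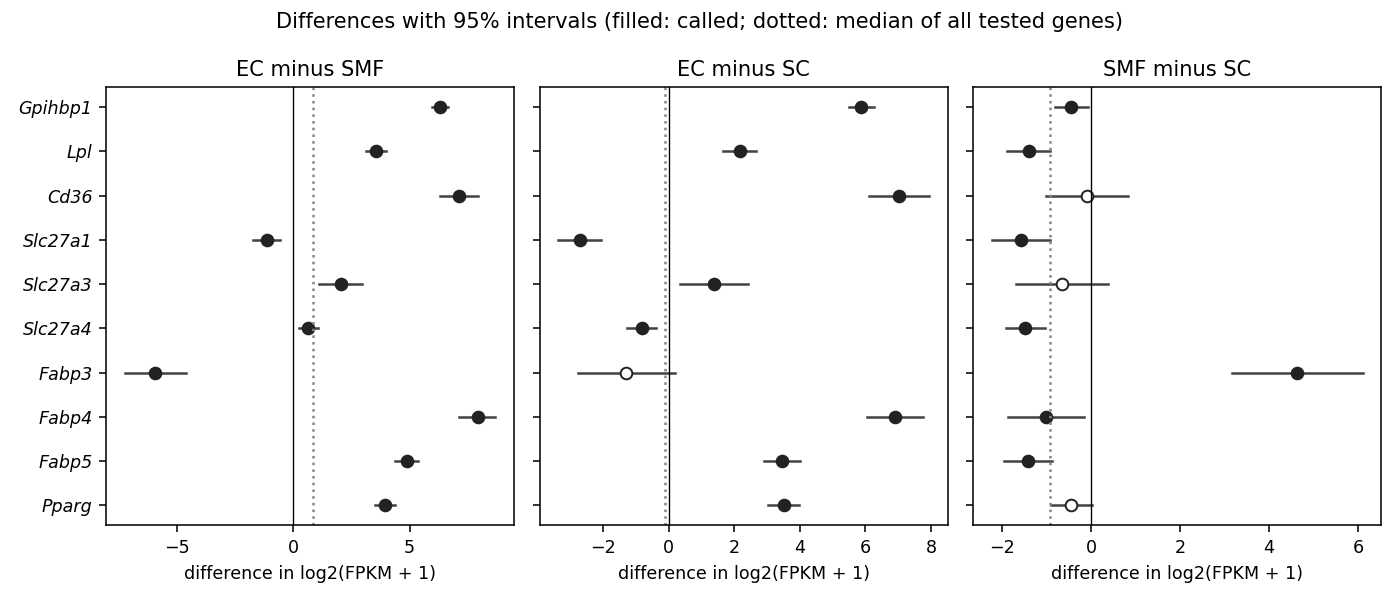
Difference of each member in log2(FPKM + 1) between groups, with its 95% interval from limma, for EC minus SMF, EC minus SC and SMF minus SC; filled points passed an adjusted p of 0.05, and the dotted line is the median of all 16700 tested genes. Fabp3 lies far left for EC minus SMF and far right for SMF minus SC, and most other members in SMF minus SC lie near the dotted line.

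Between fibres and satellite cells only Fabp3 kept its call under every alternative. On the log2 scale SMF minus SC was -1.40 for Lpl (SE 0.21, adjusted p = 0.000654, limma), -1.58 for Slc27a1 (SE 0.28, adjusted p = 0.0015) and -1.48 for Slc27a4 (SE 0.19, adjusted p = 0.000296), while all tested genes had a median of -0.93. Relative to that median these differences were -0.48, -0.65 and -0.55. After median-of-ratios scaling, Lpl was at -0.03 (adjusted p = 0.94) and Slc27a1 at -0.38 (adjusted p = 0.322), so their calls between SMF and SC depend on the scaling. The markers of fibro-adipogenic progenitors summed to 39.9 to 112 FPKM in SMF and 457 to 461 FPKM in SC. Most of the SC sum came from Gsn, Col3a1 and Dpt, with SC means of 203, 111 and 99.4 FPKM. Of 9 such markers tested, 4 were lower in SMF than in SC, against 56.5% of all tested genes. The other 5 were not called, among them Dcn (means 20.9 FPKM in SMF and 17.2 in SC) and Pdgfra (0.428 and 1.51). The part of progenitor RNA in the member differences was not tested. Gpihbp1 at -0.44 (adjusted p = 0.0446) and Fabp4 at -1.01 (adjusted p = 0.0424) were the calls nearest the threshold, and they lost it in 13 and 14 of 22 alternatives. Without SC replicate 1, Fabp4 was at -0.31 (adjusted p = 0.277). Without SC replicate 3, Gpihbp1 was at -0.28 (adjusted p = 0.253) and Cd36 at -0.84 (adjusted p = 0.023).

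Within each family, 1 member made most of the summed FPKM in EC and 1 in SMF. Of the summed FPKM of the 3 Fabp members, Fabp4 made 93.6 to 95.2% in EC and 1.38 to 1.49% in SMF, while Fabp3 made none in EC and 98.5 to 98.6% in SMF. The SC libraries had little of the family, 6.64 and 8.28 FPKM in all, and differed in makeup, with 78.5% Fabp4 in SC1 and 60.5% Fabp3 in SC3. By TPM, SC1 held 93.5% Fabp4, and SC3 held 40.1% Fabp3 and 39.6% Fabp5, so no member led clearly in SC3. Of the Slc27a members, Slc27a3 made 57.5 to 86.6% in EC, and Slc27a1 made 81.8 to 94.2% in SMF and 65.9 to 74.5% in SC. The Slc27a sums themselves were small, from 2.66 to 7.56 FPKM in EC, 1.19 to 2.35 FPKM in SMF and 8.94 to 11.2 FPKM in SC. By TPM, Slc27a1 made 64.6% in SMF2. Across both families, 5 group mean shares moved by more than the SD of their libraries when taken by TPM, and 13 did not.

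**Figure D3:**
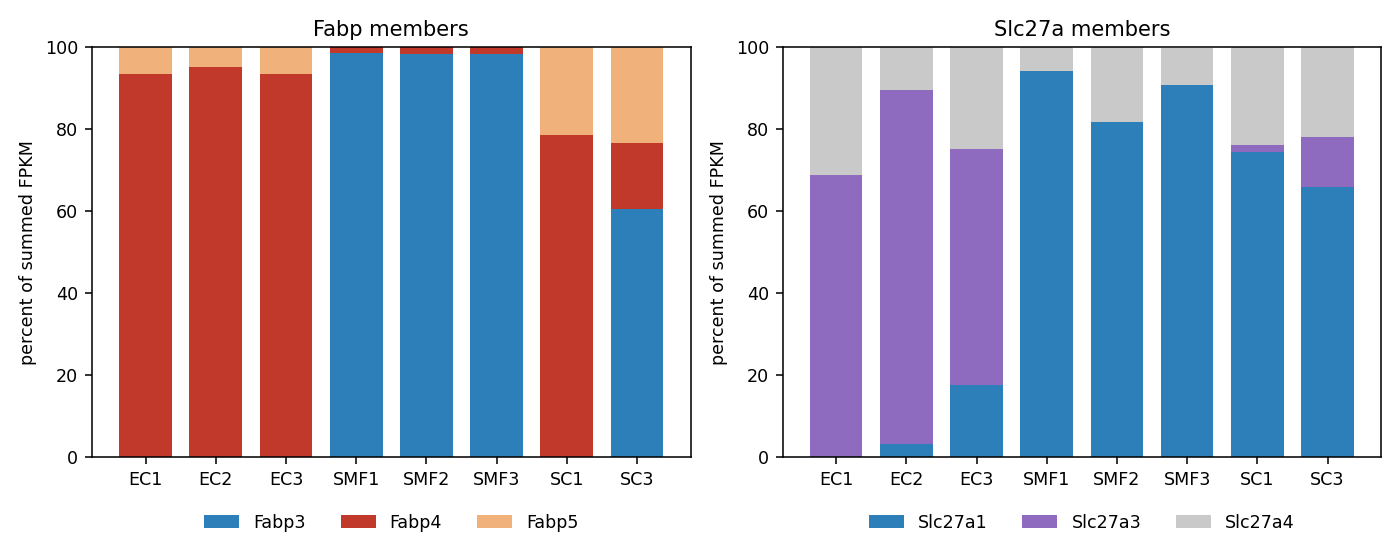
Share of each member in the summed FPKM of the Fabp members (left) and of the Slc27a members (right), in percent, for each EC, SMF and SC library. Fabp4 fills 93.6% or more of every EC bar and Fabp3 98.5% or more of every SMF bar, and the SC1 and SC3 bars of the Fabp family differ.

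The low levels outside EC were set beside the endothelial markers of the same library, since the SMF and SC libraries held traces of these. Fabp4 amounted to 27.2 to 35.6% of the endothelial marker sum in EC, to 15.4 to 21.3% in SMF and to 19.2 and 6.77% in SC. Relative to this sum, Fabp4 was therefore no higher in SMF or SC than in EC. The SC sums rest largely on 1 marker, Tek, with 12.8 of 27.2 FPKM in SC1 and 12.1 of 19.8 FPKM in SC3. In EC, Tek was at 89.0, 115 and 96.2 FPKM of 1416 to 1457 FPKM. The SC ratios given here therefore depend on Tek, and ratios without it were not taken. By gene FPKM, Cd36 amounted to 36.2 to 38.6% in EC, 50.5 to 87.3% in SMF and 22.2 and 7.45% in SC. By this measure it too was below the EC ratio in SC, and in SMF it was above. Most of the Cd36 gene value in SMF and SC lies outside the transcripts listed for it, as given below. None of these exceeded 0.310 FPKM there, so the SMF direction holds for the gene value only. Ratios on the listed transcripts were not taken. Lpl stood far above the EC ratio outside EC, at 3.42 to 4.55% in EC, 64.8 to 105% in SMF and 47.0 and 55.2% in SC. Slc27a1 was also above its EC ratio, with 0 to 0.0331% in EC, 21.7 to 49.4% in SMF and 29.8 to 30.8% in SC. SC1, the SC library with more Cd36 and Fabp4, also had the larger endothelial sum, 27.2 FPKM against 19.8 FPKM in SC3. The part of endothelial RNA in these low levels was not tested.

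**Figure D4:**
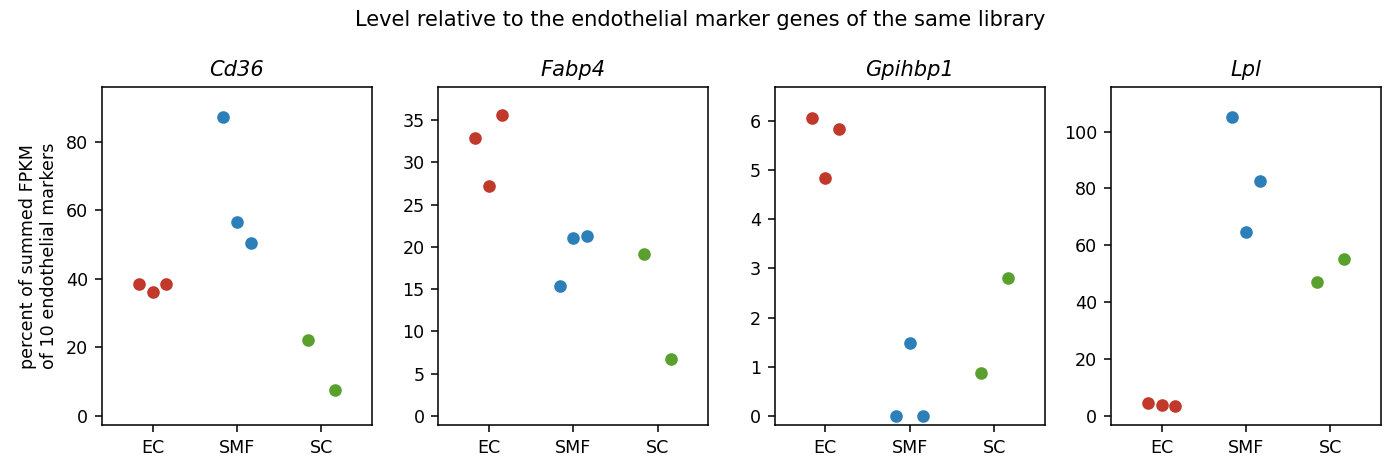
Level of Cd36, Fabp4, Gpihbp1 and Lpl in each EC, SMF and SC library as a percent of the summed FPKM of 10 endothelial marker genes of that library; each point is a library and each panel has its own linear axis. Lpl is at 3.42 to 4.55% in EC and at 47.0% or more in every SMF and SC library, whereas Fabp4 and Gpihbp1 are highest in EC.

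The transcript table added detail on which RNA the gene values stand for. Fabp4 had 2 listed transcripts. The 4-exon messenger RNA (896 bases) was at 1350.2, 1239 and 1444 FPKM in EC, 0, 0 and 0.304 FPKM in SMF and 21.8 and 1.41 FPKM in SC. A single-exon transcript of 4231 bases that GENCODE classes as a retained intron was at 216, 158 and 229 FPKM in EC, 0.711, 0.996 and 1.09 FPKM in SMF and 0.908 and 1.12 FPKM in SC. The single-exon form made 11.3 to 13.8% of the listed Fabp4 FPKM in EC and 100.0, 100.0 and 78.2% in SMF. The gene FPKM of Fabp4 is taken over 4489 bases, the whole span of the gene, and so lies below that of the messenger RNA. On the spliced transcript alone, an alternative added after the data were seen, EC minus SMF was 10.26 on the log2 scale (adjusted p = 7.16e-06, limma) and EC minus SC was 7.50 (adjusted p = 0.000225).

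Cd36 in EC was spread over 3 coding transcripts, whose means were 179, 84.3 and 130.0 FPKM and which start at 17835696, 17849729 and 17835717. In SMF and SC the listed Cd36 transcripts held between 0 and 8.63 fragments in a library. None of these transcripts exceeded 0.310 FPKM there, and in SMF3 and SC1 all were listed at 0. The Cd36 gene values of the same libraries were 1.47 to 6.04 FPKM. Most of the low Cd36 gene value in SMF and SC thus lies outside the listed transcripts. For Cd36, as for Pparg, 1 transcript number is absent from the rows used here. The main Lpl messenger RNA was at 104, 83.8 and 70.3 FPKM in EC, 6.27, 4.13 and 5.40 FPKM in SMF and 18.9 and 14.4 FPKM in SC, the same order as the gene. Pparg was carried in EC by RNA outside the listed transcripts: those listed did not exceed 0.799 FPKM, and the transcript that begins at 115422066, directly after the downstream promoter window printed above, was listed at 0 in all 8 libraries. Of the listed Slc27a3 FPKM in EC, a transcript classed as a retained intron made 100.0, 79.3 and 100.0%, at 2.70, 6.10 and 1.58 FPKM. The 10-exon coding transcript of Slc27a3 that starts at 90389927 was listed at 0 in every library, and another 10-exon coding transcript was at 0.484 FPKM in EC2 and listed at 0 in the other libraries. In Gpihbp1, a retained-intron form held 14.9, 86.8 and 99.0 FPKM in EC. Which transcript a fragment was assigned to depends on the authors' assembly step and was not tested.

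The authors' deposited table gives each locus a specificity score for each population, by a formula that is not stated. For EC, Cd36 had the highest score of 46435 loci in the authors' deposited table (2.09), Fabp4 ranked 3 (2.06) and Gpihbp1 ranked 10 (1.87). Pparg ranked 188 and Lpl 708 for EC in the authors' deposited table. Fabp3 ranked 139 for SMF, with a score of 1.00, in the authors' deposited table.

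The genes whose pattern lay closest to a member were found by the root mean square difference of centred log2(FPKM + 1) over the 8 libraries, as a description with no test. For Cd36 they were Adgrf5 (0.31), Aqp1, the water channel (0.32), and Cdh5, the junction protein of endothelium (0.32), and Cdh5 and Adgrf5 were also the nearest to Fabp4. For Gpihbp1 they were Egfl7 (0.14) and Esam (0.15), and for Pparg they were Pcdh1 (0.07), Rsad2 (0.09) and Cyp26b1 (0.11), which degrades retinoic acid. For Fabp3 the nearest were Tcea3 (0.38), Cacng1, a subunit of the muscle calcium channel (0.46), and Hfe2 (0.58).

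Genes around the members were grouped by step. Among endothelial regulators of lipid transport, 15 of 16 tested genes were higher in EC than in SMF and 1 was lower. Of all tested genes 55.5% were higher and 10.8% lower. The median log2 difference was 4.72 against 0.85 for all tested genes. Against SC, EC was higher for 11 and lower for 2, with 16.4% and 21.2% of all tested genes. The list was drawn up from endothelial genes, and Tek is also 1 of the 10 endothelial markers. Its direction was thus largely set in advance, and the counts are a description only. Flt1, a receptor for VEGF-B, was at 130.2, 123 and 122 FPKM in EC, 0.304, 0.315 and 0.465 FPKM in SMF and 0.766 and 0.588 FPKM in SC. Its co-receptor Nrp1 averaged 183 ± 38.2 FPKM in EC, 3.00 ± 0.484 FPKM in SMF (SD, n = 3 each) and 5.54 ± 0.302 FPKM in SC (SD, n = 2). The ligand had the opposite order: Vegfb was at 2.33, 2.34 and 3.23 FPKM in EC, 22.1, 17.9 and 22.6 FPKM in SMF and 6.15 and 9.06 FPKM in SC. For Vegfb, EC minus SMF was -2.59 on the log2 scale (adjusted p = 9.88e-06, limma), and it was the 1 gene of this list in that direction.

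A broader list held PPAR partners, coregulators and other transcription factors. Of its 16 tested genes, 9 were higher in EC than in SMF and 3 were lower, and the 3 became 7 after median-of-ratios scaling. The higher share is near the 55.5% of all tested genes, and the list median was 1.08 against 0.85 for all tested genes. Tcf15, Meox2 and Nr1h2 were among the 5 genes of the list called highest in EC, so these calls do not stand for PPAR partners as such. Meox2 and Tcf15, transcription factors that form a pair in heart and muscle endothelium, were at 66.0, 76.0 and 63.9 FPKM and at 96.8, 42.1 and 90.8 FPKM in EC. In SMF, Meox2 averaged 1.18 FPKM and Tcf15 0.415 FPKM, and in SC Meox2 averaged 0.875 FPKM while Tcf15 was listed at 0. Rxrg was listed at 0 in all 3 EC and both SC libraries and was at 7.69, 8.67 and 9.01 FPKM in SMF. The coactivator Ppargc1a averaged 0.279 ± 0.213 FPKM in EC, 5.77 ± 0.326 FPKM in SMF (SD, n = 3 each) and 1.18 ± 0.110 FPKM in SC (SD, n = 2). The coactivator Ncoa1 was highest in SC, where it averaged 36.5 ± 0.737 FPKM (SD, n = 2).

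Among genes of lipoprotein lipolysis and uptake, 11 of 14 were higher in EC than in SMF and 2 were lower, and the 11 became 6 after median-of-ratios scaling. Of all tested genes 55.5% were higher and 10.8% lower, and the list median was 1.59 against 0.85. Scarb1, the HDL receptor, was at 41.5, 35.9 and 39.2 FPKM in EC, 0.0623, 0.105 and 0.109 FPKM in SMF and 1.24 and 0.742 FPKM in SC. The receptor Vldlr was the exception with its highest level in the fibre, at 0.276, 0.0940 and 0.327 FPKM in EC, 8.92, 14.9 and 8.01 FPKM in SMF and 3.75 and 3.02 FPKM in SC. Lrp1 was highest in SC at 42.1 ± 0.532 FPKM (SD, n = 2), and in EC it was at 8.15, 1.29 and 7.67 FPKM.

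Of the other carriers and activating enzymes, 5 of 12 tested were higher in EC than in SMF and 3 lower, and after median-of-ratios scaling 2 were higher and 7 lower. Of all tested genes 55.5% were higher and 10.8% lower, and the list median was -0.05 against 0.85. The acyl-CoA synthetases, which trap fatty acid in the cell, differed by form. Acsl5 was at 16.3, 15.0 and 15.6 FPKM in EC, listed at 0 in all 3 SMF libraries and at 4.73 and 4.71 FPKM in SC. Acsl1 was at 2.28, 1.25 and 1.93 FPKM in EC, 8.06, 6.92 and 7.57 FPKM in SMF and 0.538 and 0.696 FPKM in SC. Acsl3 averaged 1.71 FPKM in EC, 2.42 FPKM in SMF and 8.51 FPKM in SC.

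Genes of mitochondrial entry and beta-oxidation were the list with most lower calls in EC against SMF, 15 of 23 tested, with 2 higher. Of all tested genes 10.8% were lower and 55.5% higher, and the list median was -1.01 against 0.85. SMF was higher than SC for 13 and lower for 2, and the 13 became 21 after median-of-ratios scaling. As deposited, 8.57% of all tested genes were higher in SMF than in SC and 56.5% lower. Crat, which makes acetylcarnitine, was at 2.25, 2.46 and 1.96 FPKM in EC, 20.9, 19.7 and 23.8 FPKM in SMF and 2.66 and 4.72 FPKM in SC. Etfb, the electron transfer flavoprotein subunit, averaged 13.4 ± 2.37 FPKM in EC, 40.8 ± 4.63 FPKM in SMF (SD, n = 3 each) and 15.7 ± 4.01 FPKM in SC (SD, n = 2). Cpt1a, the liver form of the carnitine transferase that admits fatty acid to the mitochondrion, went the other way, at 14.9, 10.8 and 12.4 FPKM in EC, 0.290, 0.160 and 0.283 FPKM in SMF and 20.6 and 23.4 FPKM in SC. The muscle form Cpt1b, named outside the rule given below, was at 24.6, 4.28 and 25.0 FPKM in SMF. Its means were 0.0654 FPKM in EC and 0.203 FPKM in SC.

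Of the storage genes, 8 of 15 tested were higher in EC than in SMF and 3 were lower, and the 8 became 4 after median-of-ratios scaling. That share is near the 55.5% of all tested genes that were higher, and the list median was 0.70 against 0.85. The lipases Lipe and Mgll were highest in EC, at 22.7, 16.3 and 18.7 FPKM and at 16.7, 21.8 and 36.7 FPKM. In SMF these lipases averaged 0.254 and 0.465 FPKM, and in SC 1.98 and 1.14 FPKM. Of the genes of triglyceride synthesis, Gpam and Lpin1 were highest in SMF, and Agpat3 was highest in SC at 7.16 ± 0.436 FPKM (SD, n = 2). Gpam was at 1.91, 1.15 and 1.22 FPKM in EC, 22.1, 23.1 and 25.8 FPKM in SMF and 4.51 and 7.66 FPKM in SC, and Lpin1 averaged 2.19 ± 0.383 FPKM in EC, 35.9 ± 1.20 FPKM in SMF (SD, n = 3 each) and 1.97 ± 0.832 FPKM in SC (SD, n = 2).

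**Figure D5:**
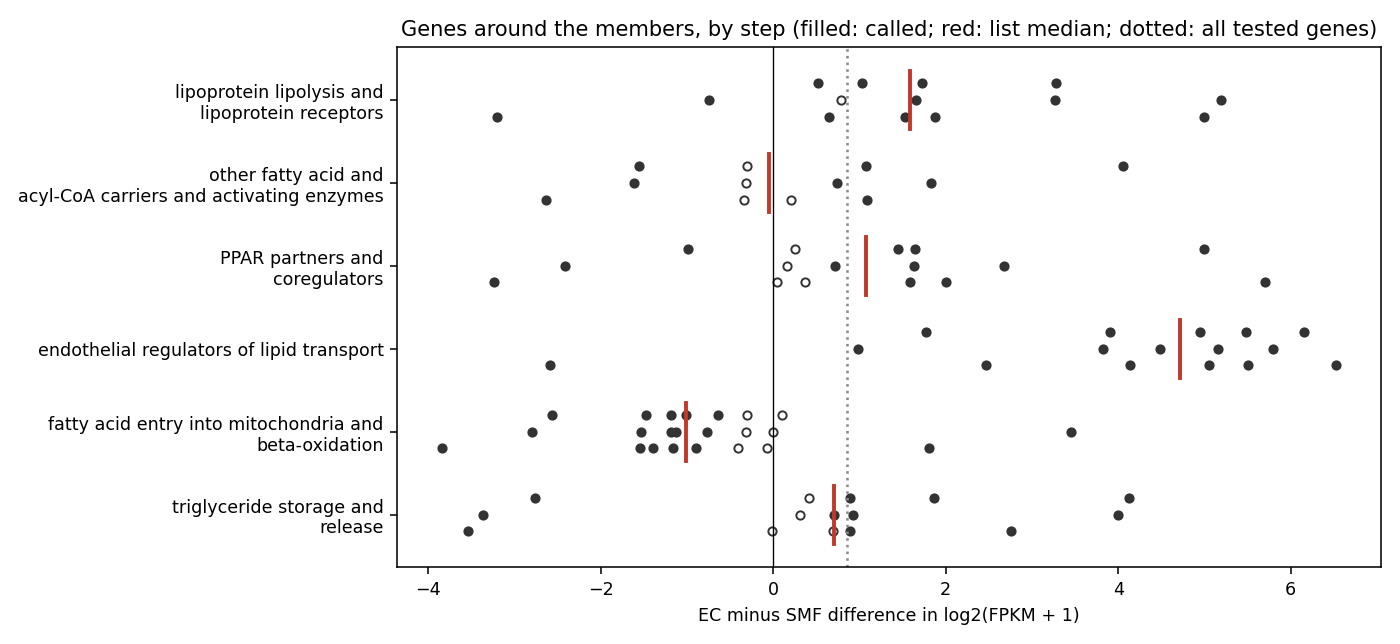
EC minus SMF difference in log2(FPKM + 1) of every tested gene in the 6 lists around the members; each point is a gene, filled where it passed an adjusted p of 0.05 in limma, the red line is the list median and the dotted line the median of all tested genes (0.85). The endothelial regulators lie to the right, with a median of 4.72, and the genes of beta-oxidation to the left, with a median of -1.01.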

How the data were processed

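Total RNA of 8 mouse libraries (3 EC, 3 SMF, 2 SC) was made into libraries from 10 ng with a stranded, ribosome-depleting kit and read as 50 bp pairs, with 20 M reads expected, per the labels' protocols. Samples were grouped by title. The submitters' processing notes name HISAT2, StringTie, Trimmomatic, FastQC and bedtools, and the build mm10. Versions, settings and any use of strand in counting were details not given in the sources used here. The authors deposited FPKM for genes and transcripts, read coverage (signal) for transcripts, and TPM with a specificity score for loci. The gene table holds no counts, so limma 3.58.1 in R 4.3.3 was fitted, with a mean-variance trend, to log2(FPKM + 1) of all 8 libraries, with 1 mean per group; a fold change on that scale understates low genes. Genes at 1 FPKM or more in at least 2 libraries were tested (16700 of 36048), two-sided, with Benjamini-Hochberg adjustment over them, and the fit was tested on simulated data. Ratios are of mean FPKM as deposited. Depth was inferred from the median ratio of deposited coverage to FPKM over abundant transcripts, with a fragment counted as 100 bases. GENCODE classes come from a later build, by identifier only. RefSeq tables of GRCm38.p6 (mm10) held all 10 members and promoters for 6 of them. Alternatives were other pseudocounts, filters and scalings, the TPM table, the fit without a trend or on 2 groups only, a test against a log2 change of 1, a replicate block, and each library left out. The members and lists were chosen with earlier results of these data known. From each list the text could name up to 3 genes highest in EC, 3 in SMF and 2 in SC, each called against both other groups, by mean FPKM.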

Additional observations from a re-analysis of the deposited data

How the results depend on the processing

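The EC calls of Cd36, Lpl, Gpihbp1, Fabp4, Fabp5 and Pparg against SMF and against SC, and the Fabp3 calls of SMF against both other groups in the direction given, held in all 22 alternatives. In the SMF to SC comparison, 2 members were lower under median-of-ratios and under upper-quartile scaling and 3 under scaling without the 50 most abundant genes, and 2 were higher under upper-quartile scaling and without SC replicate 1. The SMF minus SC difference of Cd36 turned to 1.08 (adjusted p = 0.0504), 1.24 (adjusted p = 0.0342), 0.70 (adjusted p = 0.135) under these scalings and to 0.67 (adjusted p = 0.0477) without SC replicate 1 (range with a library left out -0.84 to 0.67), and under upper-quartile scaling Lpl turned to 0.14 and Fabp4 to 0.03. The cause was not tested. Members lower in EC than in SC numbered 1 with a minimum of 5 FPKM (which gives no value for Slc27a3 and Slc27a4), under scaling without the 50 genes, in the fit on 2 groups and in the test against a log2 change of 1. That test also left 1 member lower in EC than in SMF and 0 lower in SMF than in SC. It called 28% of all genes for EC minus SMF, 9.47% for EC minus SC and 27% for SMF minus SC, and with no filter on low values these shares were 30.1%, 17.4% and 33.6%, over more genes tested. With each library left out in turn, EC exceeded SMF for 8 to 8 members and lay below for 2 to 2, EC exceeded SC for 6 to 7 and lay below for 2 to 2, and SMF exceeded SC for 1 to 2 and lay below for 4 to 6; all genes called ranged over 60.2 to 72%, 25.9 to 39.1% and 55.7 to 69.2%. Where 1 SC library remained, it was assumed to vary like the other groups.

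Whether the replicate numbers pair the samples is not given in the labels. Deviations of same-numbered libraries from their group means correlated between -0.06 and 0.09. Not every EC library correlated best with the SMF library of its number. With only SC1 and SC3 in a group, their deviations mirror each other by construction (0.09 and -0.09 with EC1). These correlations cannot show whether same-numbered libraries share an animal. With a replicate block, 66%, 33% and 61.6% of genes were called, Slc27a3 in EC minus SC was at 1.17 (adjusted p = 0.0955), and in SMF minus SC Gpihbp1 was at -0.41 (adjusted p = 0.111) and Fabp4 at -0.97 (adjusted p = 0.0857).

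Precision is limited by 2 to 3 libraries per group and, for Slc27a1, Slc27a3 and Slc27a4, by few fragments, at most 73.3, 61.8 and 37.1 in a library. Levels relative to all RNA of a library cannot show amounts per cell.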

Other observations

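Fabp9, a testis-type binding protein gene that lies near Fabp4 on chromosome 3, was chosen after its values were seen. It was listed at 7.76, 0 and 6.40 FPKM in EC, and at 0 in all 3 SMF and both SC libraries. Angptl4, which inhibits lipoprotein lipase, was at 21.6, 6.30 and 19.0 FPKM in EC, 0.626, 0.570 and 0.426 FPKM in SMF and 14.4 and 15.7 FPKM in SC, and was likewise chosen after its values were seen. In limma it was higher in EC than in SMF by 3.28 on the log2 scale (adjusted p = 0.000171), and EC and SC differed by -0.11 (adjusted p = 0.878).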
